A study of Mus musculus with 6 samples.

Results

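The genes described here carry the annotation "Protein processing in endoplasmic reticulum" in the pathway column of the authors' gene table. The endoplasmic reticulum (ER) is the compartment where secreted and membrane proteins are made, folded and inspected. The annotation stood in 158 rows; 2 of these were left out by rule, which left 156 members among 16906 genes. RNA from mouse colon tissue was sequenced in 3 libraries of a normal group and 3 libraries of a TNBS group. Both groups were wild-type (WT) male C57BL/6J mice, 6 to 8 weeks old and 20 to 22 g in weight. The normal group is labelled only by normal feeding. The model group received TNBS (trinitrobenzene sulfonic acid, a hapten used to induce colitis in rodents) at 5% w/v into the colon through the anus. No vehicle is named for the normal group, so the agent and the procedure cannot be told apart. The time between dosing and sampling and the part of the colon taken were not given in the sources used here, and nothing states how many animals stand behind each library. The p-values below therefore measure the spread between these samples.

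A nascent secretory protein enters the ER through the translocon, receives a glycan from the oligosaccharyltransferase, and folds with the help of lectins, Hsp70 and Hsp90 chaperones and disulfide isomerases. Folded cargo leaves in COPII vesicles, while misfolded protein is pulled back to the cytosol, ubiquitinated and degraded. When unfolded protein builds up, the sensors Ern1 (IRE1), Eif2ak3 (PERK) and Atf6 slow translation and induce chaperone genes, which is known as the unfolded protein response; in the colon this machinery is known to be heavily used by mucus-secreting goblet cells and antibody-secreting plasma cells.

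One known DNA sequence of this response is the ER stress element, CCAAT and CCACG separated by 9 bases, at which Atf6 binds together with the CCAAT-binding factor NF-Y. RefSeq promoters (GRCm38.p6, 250 bases before to 50 after the annotated start) were found for 122 of the 152 tested members. The element, searched on both strands, was present in 8 of these 122 promoters (6.56%) and in 18 of the 10480 promoters of all tested genes (0.172%). The 8 members were the luminal chaperones Hspa5 (BiP), Hsp90b1 (Grp94) and Dnajc3, the lectins Calr and Canx, the disulfide isomerase Pdia6, and Syvn1 and Derl3 of the degradation machinery. Their windows are shown because these genes are among those that set the pattern described below. Each is printed in the direction in which CCAAT comes first, with CCAAT and CCACG in capitals and 10 bases on either side; the sign after the coordinates is the genome strand printed.
Hspa5, chr2:34772015-34772053, +: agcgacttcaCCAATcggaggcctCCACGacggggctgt
Hsp90b1 distal, chr10:86705628-86705666, -: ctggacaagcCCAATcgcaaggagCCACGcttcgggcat
Hsp90b1 proximal, chr10:86705523-86705561, +: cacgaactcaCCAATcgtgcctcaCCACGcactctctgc
Dnajc3, chr14:118937817-118937855, +: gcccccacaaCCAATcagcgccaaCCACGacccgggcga
Calr, chr8:84847065-84847103, +: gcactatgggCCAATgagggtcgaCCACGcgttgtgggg
Canx, chr11:50325790-50325828, -: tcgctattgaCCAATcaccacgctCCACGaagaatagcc
Pdia6, chr12:17266481-17266519, +: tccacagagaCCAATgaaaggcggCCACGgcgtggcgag
Syvn1, chr19:6046522-6046560, +: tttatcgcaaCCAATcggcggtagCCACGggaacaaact
Derl3, chr10:75893232-75893270, -: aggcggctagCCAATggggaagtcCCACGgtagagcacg

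The 9 spacer bases differed from gene to gene, and Hsp90b1 was the carrier with 2 elements in opposite orientations. The 250 bases upstream of the RefSeq start are printed for Hspa5 and Hsp90b1 to show the elements in place, 5′ to 3′ on the gene's strand, with the elements in capitals; the second element of Hsp90b1 reads in the reverse direction.
Hspa5, chr2:34771840-34772089, +: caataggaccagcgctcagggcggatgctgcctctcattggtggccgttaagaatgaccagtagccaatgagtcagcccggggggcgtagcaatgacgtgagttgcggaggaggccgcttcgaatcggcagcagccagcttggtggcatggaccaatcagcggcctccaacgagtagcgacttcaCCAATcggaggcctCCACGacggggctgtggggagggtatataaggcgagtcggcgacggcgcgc
Hsp90b1, chr10:86705445-86705694, -: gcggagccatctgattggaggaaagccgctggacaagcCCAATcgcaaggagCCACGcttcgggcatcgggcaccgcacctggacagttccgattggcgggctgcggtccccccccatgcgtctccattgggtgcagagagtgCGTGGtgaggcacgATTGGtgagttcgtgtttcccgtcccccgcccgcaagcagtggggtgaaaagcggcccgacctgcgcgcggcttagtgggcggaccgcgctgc

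In Hspa5 the first base of the element lay 65 bases before the RefSeq start. The shorter ER stress element II, ATTGG and CCACG separated by 1 base, was present in Dnajb11 and Herpud1, which is 1.64% of the members' promoters against 0.0763% of all. The unfolded protein response element TGACGTGG was present in 6 members (4.92% against 1.06%) and the amino acid response element TGATGNAAN, known to bind Atf4, in 4 (3.28% against 2.81%). The heat shock element, GAA, TTC and GAA separated by 2 bases each, was present in Hsph1, Nploc4 and Sec62 (2.46% against 0.573%). All motifs were read on both strands, and a match describes the letters only.

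The 6 libraries held 15185569 to 23380492 counts, of which the members took 2.59%, 2.92% and 3.15% in normal replicates 1, 2 and 3 and 2.96%, 2.12% and 2.42% in TNBS replicates 1, 2 and 3. The TNBS libraries differed from each other. The 4 Y-linked genes, expected in males, summed to 0.697%, 103% and 38.2% of the normal mean in TNBS replicates 1, 2 and 3. The library labelled TNBS replicate 1 thus goes against its label. TNBS replicate 3, at 154 CPM, also lay below every normal library (372 to 461 CPM) and between the other TNBS libraries, so its label is in doubt as well. Hoxb6 stood at 8.95, 79.3 and 80.6 CPM in the same 3 libraries against 3.36 to 11.5 CPM in normal colon, and Hoxb13 at 21.4, 0.194 and 0.308 CPM against 7.37 to 106 CPM. TNBS replicate 3 lay between the other TNBS libraries in 54.7% of all tested genes, and its independence of them was not tested. Epithelial markers were present in each library, with 9 of 9 in the table and a sum of 9867 to 11547 CPM in normal and 8126 to 9515 CPM in TNBS colon. The sum of 10 neutrophil markers was 5.00 to 18.1 CPM and 91.3 to 271 CPM. Counts of called members are given with and without these libraries below, as are the genes found low in TNBS replicates 2 and 3 without TNBS replicate 1.

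Across the pathway, the clearest pattern was within the TNBS group: transcripts for luminal chaperones, isomerases, lectins and glycosylation subunits were low in TNBS replicates 2 and 3 and close to normal in TNBS replicate 1. No member passed the test between the groups. With edgeR's quasi-likelihood test and an adjusted p under 0.05, 0 of 152 tested members were higher and 0 were lower in TNBS colon, where 0.906% and 1.14% of all tested genes were. At an unadjusted edgeR p under 0.05, 6 members were higher (3.95%, against 10.8% of all tested genes) and 18 lower (11.8%, against 10.2%). DESeq2 called 1 member higher and 9 lower, where it called 4.47% and 4.32% of its tested genes, and limma-voom called 0 and 0, against 0.566% and 1.03%. Without the filter on low counts, edgeR called Ppp1r15a higher and Hspa1b lower, against 1.24% of genes in each direction, and without normal replicate 1 it called Hspa1b lower, against 0.312%. The mean was lower in TNBS colon for 98 members and higher for 54. The median log2 fold change was -0.15 over the members and 0.01 over all tested genes. The members ran from -1.81 for Hsph1 to 0.98 for Ppp1r15a. Of these, 7 members were below -1 and none above 1. A change of more than 2-fold in either direction was thus found in 4.61% of members, against 14.7% of all tested genes. For 97 members the 95% interval of the fold lay within 2-fold in either direction. All 3 TNBS libraries lay below all 3 normal libraries for 22 members (14.5%, against 14.8% of all tested genes) and above them for 10 (6.58%, against 15.3%). In this tissue RNA, fewer cells of a type and less RNA per cell cannot be told apart. Hoxb6 and Hoxb13 also set TNBS replicates 2 and 3 apart from TNBS replicate 1. The part of the colon taken is not given, and whether it differed between the libraries was not tested.

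**Figure D1:**
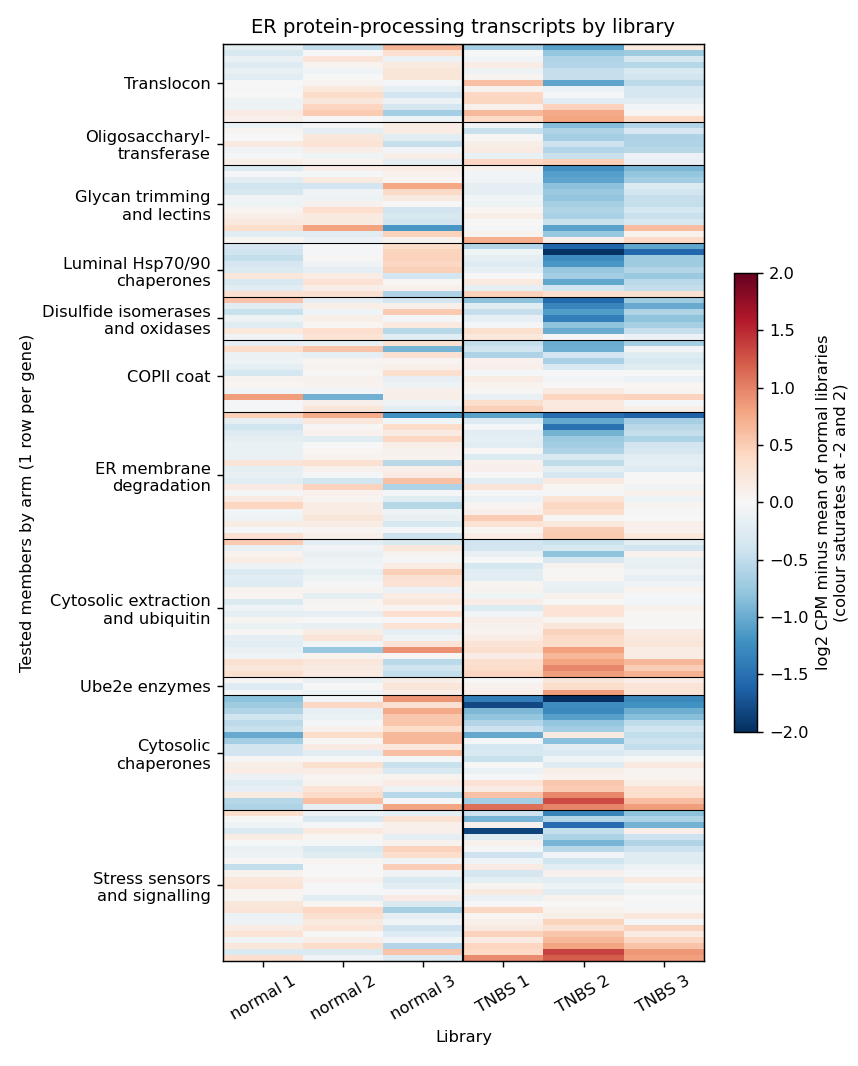
Each row is one of the 152 tested members, grouped by arm and sorted by fold change within it, and each column a library; the colour is log2 CPM minus the mean of the 3 normal libraries. The lectin, luminal chaperone and isomerase rows are mostly blue in TNBS replicates 2 and 3 and near white in TNBS replicate 1.

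TNBS replicate 2 was the lowest of the 6 libraries for 65 of 152 members (42.8%), beside 28.5% of all tested genes. The median shift of an arm was taken as the median, over its tested members, of log2 CPM minus the mean of the normal libraries. For the 9 luminal chaperones it was -0.16, -1.05 and -0.71 in TNBS replicates 1, 2 and 3, and -0.33, 0.03 and 0.37 in the normal libraries. For the 7 isomerases and oxidases it was -0.16, -1.11 and -0.66, and for the 13 members of the glycan trimming and lectin arm -0.04, -0.76 and -0.37. The 7 oligosaccharyltransferase subunits (0.02, -0.59 and -0.56) and the 13 translocon members (0.09, -0.46 and -0.33) followed the same order, with shifts in the normal libraries from -0.11 to 0.07. Over all tested genes the median shift was 0.04, 0.01 and 0.04. The COPII coat (0.05, -0.03 and -0.04) and the whole stress sensor and signalling arm (0.05, -0.05 and -0.03) had no such median shift. Within that arm the sensors Ern1, Eif2ak3 and Atf6 were low in TNBS replicates 2 and 3, as described below.

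**Figure D2:**
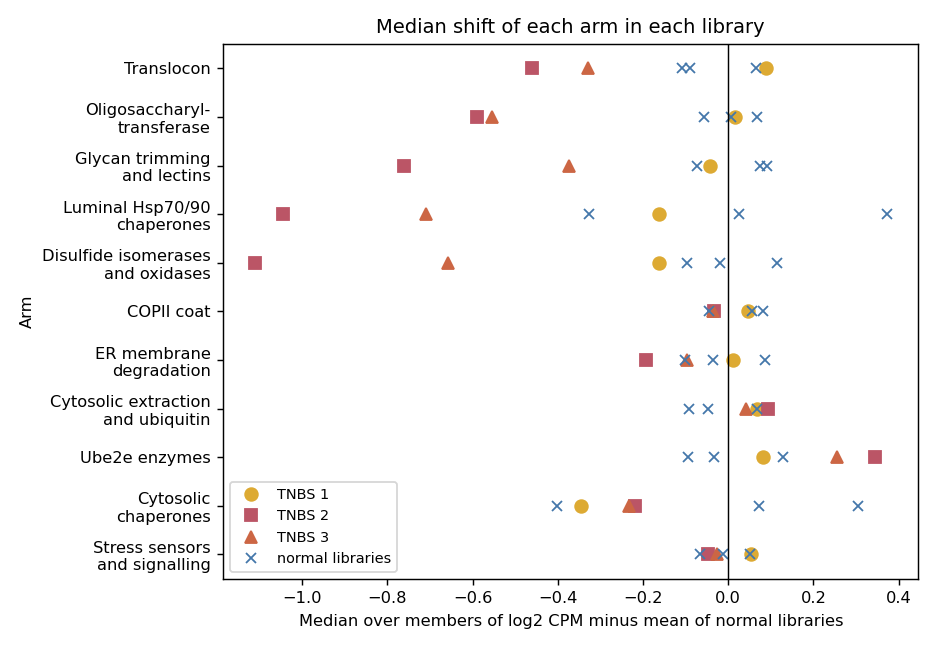
Median over each arm's tested members of log2 CPM minus the mean of the normal libraries, with crosses for the 3 normal libraries and filled symbols for the 3 TNBS libraries. From the translocon to the isomerases, TNBS replicates 2 and 3 lie left of every normal library, down to -1.11, while TNBS replicate 1 lies within 0.17 of the line at 0.

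The sum and the median shift of goblet cell markers had the same order among the TNBS libraries. Their 14 rows of the table hold Muc2 under several gene identifiers and include Agr2, itself an ER isomerase. No row was at 0 throughout. They were led by Clca3 in normal colon and by Muc2 after TNBS. Their sum was 15847, 4587 and 8039 CPM in TNBS replicates 1, 2 and 3 and 39556 to 71928 CPM in normal colon. The median shift was -0.19, -1.81 and -1.21. Among TNBS libraries, Clca3 (410, 179 and 481 CPM) and Fcgbp (561, 129 and 778 CPM) were instead highest in replicate 3. These 2 rows passed edgeR's test, both lower (adjusted p = 0.00248 and 0.0207). Of the 14 rows, 12 had a lower and 2 a higher mean. The 8 plasma cell markers in the table summed to 841, 381 and 975 CPM, against 1751 to 2641 CPM. Igj alone held 636, 213 and 784 CPM of these sums, and 1600 to 2363 CPM in normal colon. Of the 8 markers, 7 had a lower mean and 1, Sdc1, a higher mean. Fibroblast markers (8 of 8) stood at 3895, 880 and 1807 CPM, against 2266 to 2479 CPM, with a median shift of 0.81, -1.98 and -0.33. Col3a1 held 1800, 172 and 571 CPM of their sum, whereas Dcn was above every normal library in each TNBS library. Macrophage and monocyte markers (9 of 10) stood at 645, 277 and 474 CPM, against 319 to 457 CPM, with a median shift of 1.24, -0.25 and 0.58. Both lists thus had the same order among the TNBS libraries as the goblet cell markers. Smooth muscle markers (8 of 8) stood at 5683, 3705 and 5928 CPM, against 6848 to 8973 CPM. Endothelial markers (8 of 8) stood at 340, 608 and 364 CPM, against 179 to 217 CPM, and mitochondrially encoded genes at 0.755%, 3.92% and 1.95% of the counts, against 0.563% to 0.951%. The part of these differences in the results was not tested.

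Without TNBS replicate 1, edgeR called 9 members lower (5.88%, against 3.97% of all tested genes) and 1 higher (0.654%, against 3.67%). The 9 lower members were the luminal chaperones Hsp90b1 and Dnajc10, the isomerases Pdia4 and Pdia6, the glycoprotein checkpoint enzyme Uggt1, the cargo lectin Lman1 and all 3 sensors, Ern1, Eif2ak3 and Atf6; the higher one was Ppp1r15a. When TNBS replicate 2 alone stood for its group, 5 were lower (Dnajc10, Eif2ak3, Hsp90b1, Pdia4 and Pdia6; 3.27%, against 3.21% of all tested genes). With TNBS replicate 2 alone the median log2 fold change was -0.25 over the members and -0.07 over all tested genes. With TNBS replicate 1 alone it was -0.01 over both. Other members described below as low in TNBS replicates 2 and 3 did not pass without TNBS replicate 1. Their log2 fold changes were then -0.87 for Calr, -0.58 for Canx, -0.73 for Stt3a, -0.58 for Rpn1, -0.66 for Rpn2, -0.77 for Ssr3, -0.74 for Pdia3, -0.95 for Dnajc3, -0.70 for Sel1l, -0.85 for Syvn1 and -0.99 for Edem3, at adjusted p from 0.058 for Calr to 0.212 for Canx. Leaving out TNBS replicate 2 or TNBS replicate 3 left 0 calls, with medians of -0.09 and -0.16.

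Of the 13 translocon members tested, 8 had a lower and 5 a higher mean after TNBS, the median was -0.17, and none passed. Sec61a1, the main pore subunit, stood at 230, 290 and 228 CPM in normal replicates 1, 2 and 3 and at 334, 212 and 214 CPM in TNBS replicates 1, 2 and 3. The highest and the 2 lowest values were all in TNBS libraries, and the log2 fold change was 0.02 ± 0.23 (SE; adjusted p = 0.968), with a direction that depended on the library left out. Its paralog Sec61a2 stood at 28.7, 26.7 and 25.2 CPM in normal colon and 35.4, 46.4 and 35.3 CPM after TNBS. The groups did not overlap, but the difference missed the threshold (0.54 ± 0.20, adjusted p = 0.182), and 19.9% of the exon bases of Sec61a2 overlap Nudt5 on the other strand. Ssr3, a subunit of the translocon-associated complex, stood at 574, 712 and 910 CPM in normal colon and 724, 419 and 440 CPM after TNBS (-0.47 ± 0.28, adjusted p = 0.353). TNBS replicate 1 sat among the normal libraries and the others lay below them. Rrbp1, a ribosome-binding protein of the rough ER, had the highest mean of the arm, 1013 ± 161 CPM in normal against 806 ± 152 CPM after TNBS (SD, n = 3 libraries each; log2 fold change -0.33, adjusted p = 0.421), and Sec62, which assists entry after translation, was at 233 ± 35.2 and 190 ± 24.9 CPM (-0.29, adjusted p = 0.403). Sec63, the partner of Sec62, was hardly detected, with at most 1.77 CPM in any library.

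Of the 7 oligosaccharyltransferase subunits, 6 had a lower mean and none passed (median -0.30). Stt3a, the catalytic subunit that acts during translocation, stood at 320, 341 and 382 CPM in normal colon and 334, 190 and 230 CPM after TNBS. TNBS replicate 1 again fell inside the normal range and the other 2 below it (-0.47 ± 0.23, adjusted p = 0.286). Rpn1 stood at 344, 395 and 347 CPM against 405, 240 and 246 CPM (-0.29, adjusted p = 0.516), and Rpn2 at 336, 391 and 286 CPM against 339, 209 and 218 CPM (-0.40, adjusted p = 0.357). Both scaffold subunits were thus low in the same 2 libraries. Tusc3, an oxidoreductase subunit, was lower in each TNBS library than in each normal one, with 28.1, 23.8 and 30.1 CPM against 19.9, 18.0 and 21.6 CPM (-0.46 ± 0.21, adjusted p = 0.243). Dad1 was the subunit with a higher mean, 46.4 ± 4.97 CPM in normal against 55.7 ± 12.6 CPM in TNBS colon.

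In the glycan trimming and lectin arm, 12 of 13 tested members had a lower mean, and none passed (median -0.40). TNBS replicate 2 was the lowest library for 11 of them. Calr (calreticulin), the soluble lectin chaperone of the ER, stood at 833, 1097 and 1000 CPM in normal colon and 927, 470 and 602 CPM after TNBS (-0.55 ± 0.27, adjusted p = 0.283). Its membrane-bound relative Canx (calnexin) stood at 763, 907 and 1234 CPM against 828, 568 and 732 CPM (-0.45 ± 0.25, adjusted p = 0.329). For both lectins TNBS replicate 1 lay in the normal range and replicates 2 and 3 below it. Uggt1, which marks unfolded glycoproteins for another round of folding, stood at 257, 258 and 281 CPM against 256, 123 and 156 CPM. TNBS replicate 1 lay about 1 CPM under the lowest normal library, so the groups barely separated (-0.57 ± 0.26, adjusted p = 0.253). Lman2, a lectin of the early secretory route, was at 221 ± 14.8 and 168 ± 34.4 CPM (-0.40, adjusted p = 0.281). Man1c1, a mannosidase, was the one member of the arm with a higher mean, 11.6 ± 0.801 CPM against 15.5 ± 3.35 CPM.

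Of the 9 chaperones of the ER lumen, 8 had a lower mean, and none passed (median -0.52). Hspa5 (ENSMUSG00000026864, chr2:34771970-34777547, GRCm38), the Hsp70 of the ER and the classic target of the unfolded protein response, stood at 1001, 1422 and 1912 CPM in normal colon and 1214, 581 and 852 CPM after TNBS. TNBS replicate 1 lay within the normal range and the other TNBS libraries below it. The log2 fold change was -0.71 ± 0.33 (adjusted p = 0.254), or -1.01 without TNBS replicate 1 (adjusted p = 0.0866). Hsp90b1 (ENSMUSG00000020048, chr10:86690209-86705509), the Hsp90 of the ER, stood at 1369, 1681 and 2235 CPM against 1153, 566 and 841 CPM. Every TNBS library lay below every normal one, TNBS replicate 1 by the least (-1.05 ± 0.30, fold 0.484 with a 95% interval of 0.30 to 0.781, adjusted p = 0.113). The call on Hsp90b1 turned on the libraries and the tool, with an adjusted p of 0.0323 without TNBS replicate 1, 0.0425 with TNBS replicate 2 alone, 0.00755 in DESeq2 and 0.0921 to 0.885 over the other alternatives. Dnajc3, a co-chaperone that also inhibits eIF2alpha kinases, stood at 253, 306 and 425 CPM against 269, 143 and 196 CPM (-0.70 ± 0.28, adjusted p = 0.205), with TNBS replicate 1 inside the normal range. Dnajc10, a co-chaperone with reductase activity that is named because of its calls without TNBS replicate 1, split the TNBS group widely, at 438, 118 and 156 CPM against 349, 452 and 626 CPM in normal colon (-1.0 ± 0.46, adjusted p = 0.255). Erp29 was the exception in direction, with 45.6 ± 14.7 and 56.4 ± 3.58 CPM.

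Of the 7 disulfide isomerases and oxidases, 6 had a lower mean, and for 4 of them, Pdia6, Pdia4, Ero1l and Ero1lb, all TNBS libraries lay below all normal ones (57.1% of the arm, against 14.8% of all tested genes); none passed. Pdia6, an isomerase of the Hspa5 complex, stood at 297, 381 and 373 CPM against 295, 139 and 173 CPM (-0.79 ± 0.28, adjusted p = 0.169). TNBS replicate 1 lay just under the lowest normal library and the other 2 far under it. Pdia4 had the same order, 264, 306 and 279 CPM against 252, 109 and 162 CPM (-0.70 ± 0.28, adjusted p = 0.210). Ero1l, the oxidase that recharges the isomerases, stood at 135, 173 and 264 CPM against 134, 84.8 and 121 CPM (-0.75 ± 0.28, adjusted p = 0.177), so its separation from normal replicate 1 was about 1 CPM. Ero1lb, the second oxidase, was lower in all 3 TNBS libraries, with 30.8, 18.3 and 15.9 CPM against 11.8, 7.05 and 12.7 CPM (-1.04 ± 0.34, adjusted p = 0.141). Per exon length the most abundant isomerases were Pdia3 and P4hb. Pdia3, which works with the lectins on glycoproteins, stood at 1244, 1515 and 1686 CPM against 1438, 839 and 932 CPM (-0.47, adjusted p = 0.329). P4hb, the archetypal isomerase, stood at 720, 909 and 655 CPM against 875, 737 and 698 CPM, with overlapping groups (0.02 ± 0.21, adjusted p = 0.972) and a sign that depended on the library left out.

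**Figure D3:**
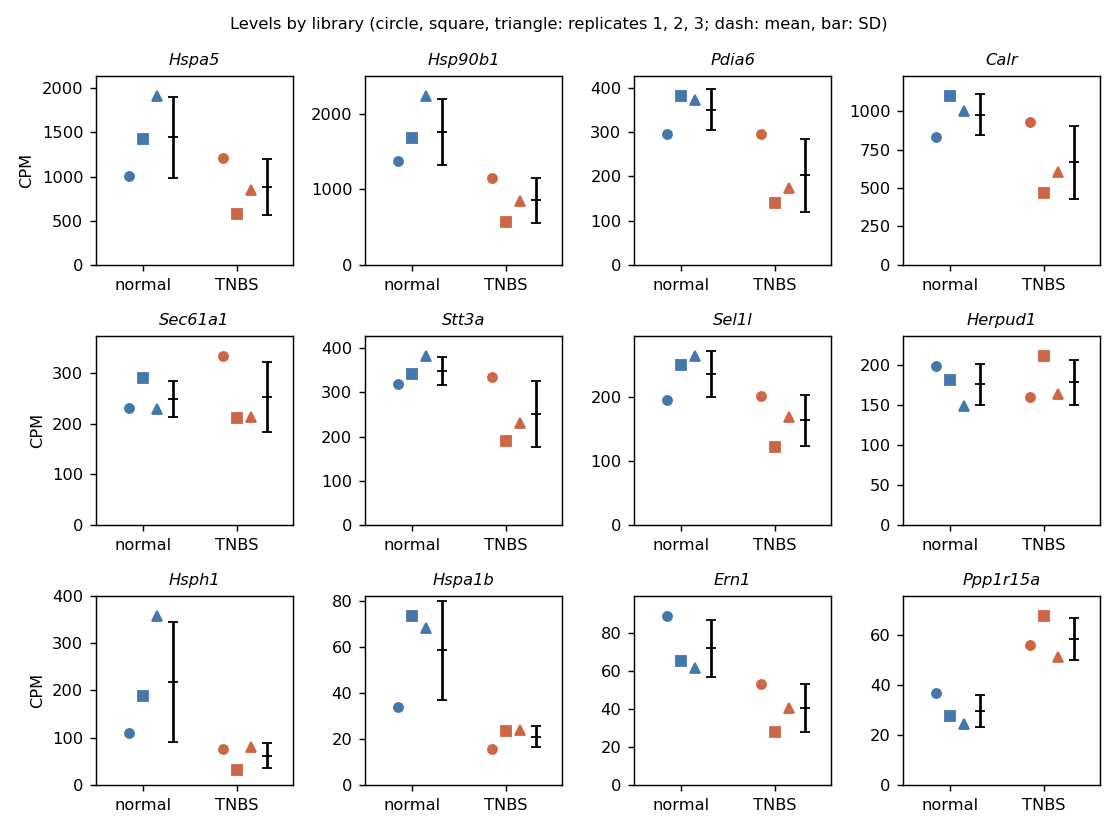
CPM of 12 members in each library, with a panel and a scale from 0 for each gene; circles, squares and triangles are replicates 1, 2 and 3, and the dash and bar are mean and SD. Hspa5, Calr, Stt3a and Sel1l have TNBS replicate 1 within the normal range and replicates 2 and 3 below it, whereas the 3 TNBS values of Hsph1, Hspa1b, Ern1 and Ppp1r15a all lie on one side of the normal values.

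The 12 COPII members had a median log2 fold change of -0.02, with 7 lower and 5 higher means and none past the test. Sec24a, one of the cargo-binding coat subunits, stood at 129, 130 and 178 CPM in normal colon and 103, 71.9 and 89.9 CPM after TNBS (-0.72 ± 0.21, adjusted p = 0.111). Its groups did not overlap, and TNBS replicate 2 was again lowest. Sec23a, its coat partner, did not overlap either, with 147, 140 and 198 CPM against 104, 123 and 135 CPM (-0.42 ± 0.20, adjusted p = 0.259), and here TNBS replicate 1 was lowest. Sec31a, the outer coat subunit and most abundant of the arm by CPM, had overlapping groups at 274 ± 25.8 and 272 ± 26.4 CPM (-0.01, adjusted p = 0.985, its sign changing with the scaling). Preb, which activates the Sar1 GTPases, was at 126 ± 20.1 and 151 ± 20.3 CPM (0.27, adjusted p = 0.442).

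The 21 members of the ER membrane degradation machinery had 12 lower and 9 higher means (median -0.11), and none passed. Sel1l, the scaffold of the Hrd1 ubiquitin ligase, stood at 197, 250 and 265 CPM in normal colon and 202, 122 and 170 CPM after TNBS (-0.53 ± 0.23, adjusted p = 0.227). Syvn1, the ligase Hrd1 itself, stood at 49.7, 66.1 and 54.1 CPM against 47.2, 27.5 and 35.4 CPM (-0.62 ± 0.24, adjusted p = 0.185). In both, TNBS replicate 1 was nearest to normal and TNBS replicate 2 lowest, but the groups separated for Syvn1 alone. Derl3 (ENSMUSG00000009092, chr10:75893413-75895941), a derlin of the retrotranslocation channel, had the lowest log2 fold change of the arm, with 8.86, 10.7 and 2.68 CPM against 2.95, 2.13 and 2.0 CPM (-1.64 ± 0.54, adjusted p = 0.145; DESeq2 called it). Normal replicate 3 lay inside the TNBS range. Edem3, a mannosidase that tags glycoproteins for disposal, was the most abundant of the arm by CPM, at 240, 323 and 410 CPM against 307, 112 and 215 CPM (-0.62 ± 0.35, adjusted p = 0.342). Herpud1, a stress-induced organiser of the ligase complex, had no such difference, with 198, 181 and 148 CPM against 160, 211 and 163 CPM (0.02 ± 0.19, 95% interval of the fold 0.747 to 1.37, adjusted p = 0.966; the sign changed with the library left out).

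The 23 tested members that extract and ubiquitinate proteins on the cytosolic side had a median of 0.05, with 13 higher and 10 lower means and none past the test; 4 lay above all normal libraries (17.4%, against 15.3% of all tested genes) and 1 below (4.35%, against 14.8%). Vcp, the ATPase that pulls proteins out of the ER membrane, stood at 362, 421 and 525 CPM against 445, 391 and 409 CPM, with all TNBS values inside the normal range (-0.07 ± 0.20, adjusted p = 0.862). Of its transcript sequence, 40.5% is shared with other genes, among which Vcp-rs shares the most. Ubqln1, a shuttle to the proteasome, was lower in each TNBS library, with 190, 201 and 248 CPM against 163, 171 and 164 CPM (-0.36 ± 0.17, adjusted p = 0.276). Ubxn6, a Vcp cofactor, was at 29.8 ± 8.07 and 46.0 ± 6.32 CPM (0.62, adjusted p = 0.200), and Stub1, a ubiquitin ligase that works with Hsp70, at 37.7 ± 8.45 and 57.1 ± 12.8 CPM (0.60, adjusted p = 0.207). Both had separate groups, but their exons overlap genes on the other strand, Chaf1a over 81.8% and Jmjd8 over 42.3% of their bases, and reads of both strands cannot be told apart here. The 3 conjugating enzymes Ube2e1, Ube2e2 and Ube2e3, placed in no arm, had higher means, at log2 fold changes of 0.12 to 0.43, with overlapping groups.

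**Figure D4:**
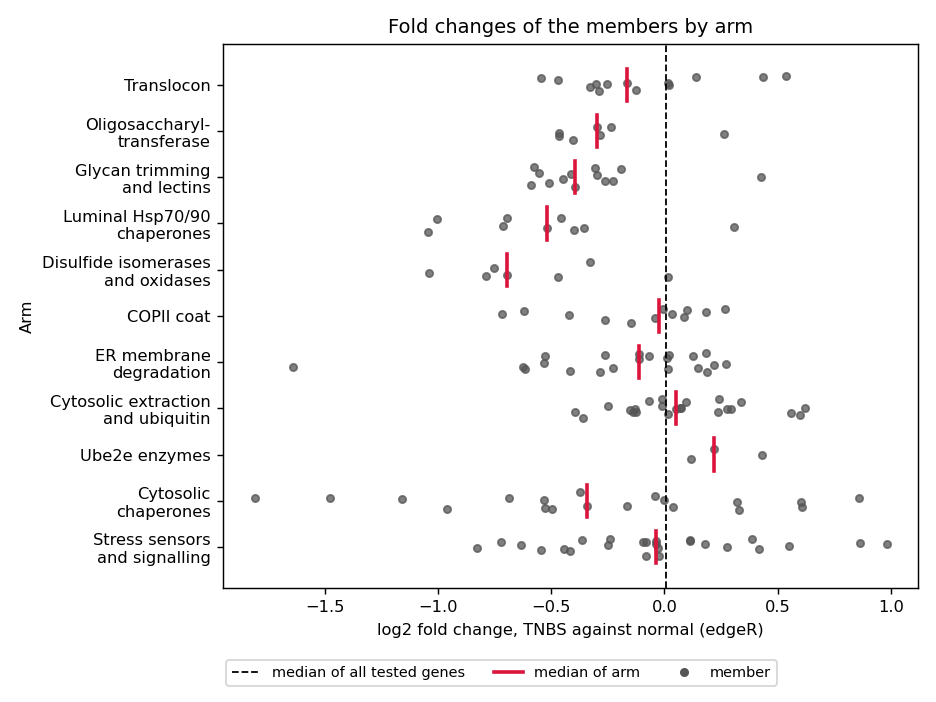
Points are the edgeR log2 fold changes (TNBS against normal) of the tested members by arm; red bars are arm medians and the dashed line is the median of all tested genes (0.01). The isomerases (median -0.70) and luminal chaperones (-0.52) lie mostly left of the line, whereas the cytosolic extraction arm (0.05) straddles it and the cytosolic chaperones run from -1.81 to 0.86.

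The cytosolic chaperones, annotated to the pathway because they receive protein leaving the ER, held the member with the lowest fold change, Hsph1. Their median shift was -0.35, -0.22 and -0.23 in TNBS replicates 1, 2 and 3, and -0.40, 0.07 and 0.31 in the normal libraries. Normal replicate 1 thus lay below every TNBS library, and the arm's median did not set the groups apart. Of 19 tested members 13 had a lower and 6 a higher mean, and none passed (median -0.34). Hsph1 (ENSMUSG00000029657, chr5:149614287-149636376), an exchange factor of Hsp70, stood at 109, 187 and 357 CPM in normal colon and 75, 32 and 79.4 CPM after TNBS. The TNBS values all lay under the normal ones, which themselves spanned more than 3-fold (-1.81 ± 0.46, fold 0.285 with a 95% interval of 0.138 to 0.589, adjusted p = 0.0862). Hspa1b (ENSMUSG00000090877, chr17:34956436-34959238), an inducible Hsp70, stood at 33.6, 73.3 and 68.3 CPM against 15.7, 23.4 and 23.8 CPM. Its groups did not overlap and TNBS replicate 1 was the lowest library (-1.48 ± 0.32, adjusted p = 0.0536). This was the smallest adjusted p among the members. Of the transcript sequence of Hspa1b, 62.3% is shared with other genes, among which the neighbouring Hspa1a shares the most. Hspa1a stood at 13, 33.8 and 41.0 CPM against 12.8, 29.6 and 18.6 CPM with overlapping groups (-0.53, adjusted p = 0.517). Hspa4l, another exchange factor, was at 67.8, 81.6 and 130 CPM against 51.7, 42.3 and 49.8 CPM (-0.96 ± 0.25, adjusted p = 0.0914), again with every TNBS library below every normal one. Hsp90aa1, the inducible cytosolic Hsp90, is added for its size after its values were seen, at 473, 636 and 1214 CPM against 385, 293 and 364 CPM (-1.16 ± 0.34, adjusted p = 0.112). Of its transcript sequence, 47.5% is shared with other genes, among which Gm12346 shares the most. In Hsph1, Hspa4l and Hsp90aa1 alike, normal replicate 3 was the highest library and normal replicate 1 the lowest normal one. Hspa8, the constitutive Hsp70 and the most abundant of the arm, stood at 1835, 2648 and 3236 CPM against 1886, 1550 and 1909 CPM, with overlapping groups (-0.53, adjusted p = 0.276).

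The 25 stress sensors and signalling members had a median of -0.04, with 16 lower and 9 higher means and none past the test. Ern1 (ENSMUSG00000020715, chr11:106394650-106487852), the sensor IRE1alpha, stood at 88.8, 65.0 and 61.6 CPM in normal colon and 53.0, 27.9 and 40.2 CPM after TNBS. Its groups did not overlap (-0.83 ± 0.26, adjusted p = 0.133; -1.08 and 0.0425 without TNBS replicate 1). Eif2ak3 (PERK) stood at 86.8, 91.2 and 99.2 CPM against 98.2, 32.2 and 48.0 CPM, and Atf6 at 154, 153 and 164 CPM against 167, 82.2 and 103 CPM. For these sensors TNBS replicate 1 was at or above the normal level and the other 2 well below it (-0.63 ± 0.35, adjusted p = 0.332, and -0.42 ± 0.25, adjusted p = 0.372; -1.21 and -0.76 without TNBS replicate 1). The epithelial IRE1 paralog Ern2 lacks the annotation and was not tested. It had 0 counts in the normal libraries and in TNBS replicate 1 and 9 and 7 counts in TNBS replicates 2 and 3. The counting tool and annotation are not known here. Absence of Ern2 from the tissue therefore cannot be told apart from reads missed in counting. Eif2ak2, a kinase of eIF2alpha that senses double-stranded RNA, was lower in each TNBS library, with 200, 162 and 245 CPM against 104, 133 and 130 CPM (-0.72 ± 0.21, adjusted p = 0.108).

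Downstream of the eIF2alpha kinases, Ppp1r15a and Atf4 had higher means in TNBS colon. Ppp1r15a (ENSMUSG00000040435, chr7:45522916-45526268), the phosphatase subunit GADD34 that restores translation after stress, stood at 36.6, 27.6 and 24.3 CPM in normal colon and 56.1, 67.5 and 51.3 CPM after TNBS. All TNBS libraries, replicate 1 included, lay above all normal ones (0.98 ± 0.22, fold 1.98 with a 95% interval of 1.40 to 2.79, adjusted p = 0.0593). Atf4, the transcription factor translated under eIF2alpha phosphorylation, also lay above in every library, at 190, 221 and 195 CPM against 227, 314 and 268 CPM (0.42 ± 0.19, adjusted p = 0.243). Ddit3 (CHOP), the death-associated factor induced by Atf4, had overlapping groups at 20.0, 18.1 and 13.8 CPM against 14.9, 14.7 and 19.5 CPM (-0.08 ± 0.25, 95% interval of the fold 0.638 to 1.40, adjusted p = 0.873). Casp12, a caspase of the ER in mice named here after its values were seen, was at 27.7, 27.6 and 50.3 CPM against 44.4, 86.4 and 61.5 CPM (0.86 ± 0.32, adjusted p = 0.176), with TNBS replicate 1 below normal replicate 3. Of 23 tested target genes of Atf4 and Ddit3 outside the annotation, none passed, 13 had a higher and 10 a lower mean, and the median was 0.13. Vldlr, a lipoprotein receptor and the one with the smallest p, stood at 57.2, 48.7 and 66.6 CPM against 32.9, 31.4 and 30.2 CPM, with separate groups (-0.87 ± 0.19, adjusted p = 0.0556). Ddit4, an inhibitor of mTORC1 signalling named after its values were seen, had separate groups in the other direction, at 30.2, 24.5 and 22.7 CPM against 37.7, 127 and 67.3 CPM (1.58 ± 0.39, adjusted p = 0.0786). Of the 23 targets, 5 lay above all normal libraries (21.7%, against 15.3% of all tested genes) and 4 below (17.4%, against 14.8%).

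Read together with the promoters, all 8 members with the ER stress element had a lower mean in TNBS colon, at log2 fold changes from -1.64 to -0.45 with a median of -0.70. None passed the test, and 3 had all TNBS libraries below all normal ones (Hsp90b1, Pdia6 and Syvn1; 37.5%, against 13.2% of members with a promoter and no element and 14.8% of all tested genes). TNBS replicate 2 was the lowest library for 7 of the 8 (87.5%, against 38.6% and 28.5%). Of the 114 members with a promoter and no such element, 74 had a lower mean, and their median was -0.14. The element was carried by 3 of the 6 luminal chaperones with a promoter in the table and by none of the members with a promoter in the oligosaccharyltransferase, translocon, COPII, cytosolic extraction, cytosolic chaperone and sensor arms, of which the first 2 were also low in TNBS replicates 2 and 3. Herpud1 and Dnajb11, with the shorter element, had log2 fold changes of 0.02 and -0.36.

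Per kilobase of exon, the most abundant members in normal colon were Hspa8 (598 CPM per kb), Hsp90ab1 (488), Pdia3 (472), Hsp90b1 (437), Hspa5 (342) and Calr (339). In TNBS colon the same quantity was 414, 501, 341, 212, 209 and 231, so the constitutive cytosolic Hsp90ab1 stood highest there. The counts of Hsp90ab1 were even across libraries, at 1463 ± 103 and 1502 ± 60.5 CPM (0.04 ± 0.19, adjusted p = 0.925). At the low end, Sec63 (0.129 CPM per kb in normal colon), Sec24d (0.150), Hspa1l (0.244) and Ganab (0.630), the catalytic subunit of glucosidase II, were tested but hardly detected. For these genes low expression in the tissue cannot be told apart from reads missed in counting. The 4 members with too few counts for a test were Dnajc5b, Fbxo2, Park2 and Lman1l. Of these Fbxo2, a ubiquitin ligase subunit that binds glycans, had 0, 5 and 1 counts in normal and 7, 13 and 20 counts in TNBS colon.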

How the data were processed

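The authors deposited 1 table with whole-number read counts for every gene in each library, per the file headers; these counts, not normalized, were used for 3 normal and 3 TNBS libraries, grouped by the labels. Another 6 value columns with the same names were not used. CASAVA 1.8, HISAT2 and mm10 are named in the submitters' processing notes; the counting tool, annotation and strand setting were not given in the sources used here. Every row was marked protein-coding. Libraries were made with a SMARTER mRNA kit, per the labels' protocols.

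Analyses were run in R 4.3.3 (edgeR 4.0.16, limma 3.58.1, DESeq2 1.42.0) and Python 3.11.15. The whole table was fitted: filterByExpr (minimum count 10, total 15) left 14126 genes, scaled by TMM and tested two-sided with edgeR's quasi-likelihood test on group alone, adjusted by Benjamini-Hochberg over all of them at 0.05. The fit was tested on simulated data. CPM are TMM-scaled; log2 CPM per library used a prior count of 2, and SE is the log2 fold change over the square root of F. Lengths, positions and overlaps came from GENCODE vM21 (GRCm38, the assembly mm10); shared sequence means stretches of 50 bases found in another gene's transcripts. Alternatives were 2 scalings, no filter, DESeq2, limma-voom, a replicate block, each library left out, and TNBS replicates 1 and 2 each as the only TNBS library.

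Members, arms, lists and tests were chosen with earlier results of these data known. Named genes were, per arm, the 3 smallest p and the highest mean CPM, a set of well-known members, and 1 or more from each outside list; others are marked where they appear. Replicates within each group differed beyond counting noise (chi-square per degree of freedom 37.9 to 176), so none repeated the counts of another in its group. Libraries of different groups were not compared in this way. The comparison cannot tell libraries of separate animals from libraries that share animals.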

Additional observations from a re-analysis of the deposited data

How the results depend on the processing

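No member was called in either direction under RLE or upper-quartile scaling or limma-voom, where 1.6% to 2.1% of all tested genes were called. Without a filter on low counts 1 member was called higher (Ppp1r15a) and 1 lower (Hspa1b), and DESeq2 called 1 higher and 9 lower, 6.54% of members beside 8.8% of its tested genes. The 9 were Derl3, Eif2ak2, Ern1, Hsp90aa1, Hsp90b1, Hspa1b, Hspa4l, Hsph1 and Sec24a. With TNBS replicate 1 or 2 as sole TNBS library, the variance taken from the normal group, the members' median log2 fold change was -0.01 or -0.25. Leaving out each library in turn gave 0 to 1 higher and 0 to 9 lower. Over all tested genes the shares then ran from 0.0483% to 3.67% higher and from 0.0759% to 3.97% lower. Normal replicate 1 and TNBS replicate 1 moved these counts: without the first Hspa1b was called lower, and without the second there were 9 lower and 1 higher. The numbers do not pair the samples (correlations of same-numbered deviations 0.0055, 0.0149 and 0.0354); a replicate block gave 0 higher and 2 lower members (Hspa1b and Hsph1; 1.47% of all tested genes were lower). The cause of these changes was not tested.

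Among the 54 tested genes named by rule, 11 changed sign somewhere, all at no call. With TNBS replicate 1 as sole TNBS library the log2 fold change was 0.027 for Agr2, 0.094 for Atf6, 0.091 for Eif2ak3, -0.13 for Herpud1, 0.17 for Rpn1, 0.0078 for Rpn2, 0.15 for Sec31a and 0.034 for Vcp. With TNBS replicate 2 alone it was -0.052 for P4hb and -0.24 for Sec61a1. Sec31a was 0.021 under upper-quartile scaling, and Sec61a1 -0.0054 under limma-voom and -0.0044 with the replicate block. Leaving out 1 library gave -0.23 to 0.044 for Ddit3, -0.12 to 0.12 for Herpud1, -0.087 to 0.18 for P4hb, -0.090 to 0.051 for Sec31a, -0.23 to 0.16 for Sec61a1 and -0.18 to 0.085 for Vcp. Of the 54, 16 gained a call under at least 1 alternative.

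Precision was limited by 3 libraries a group and by the spread among the TNBS libraries; 97 of 152 members had an interval within 2-fold. Among members 15 overlap another gene's exons by more than 5% of their bases and 21 share more than 5% of their sequence with another gene, and whether strand was used in counting is not given in the sources used here.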

Other observations

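Genes of the same compartment that lack the pathway annotation were counted in 3 further lists, with no member past the edgeR test. Of 31 tested other ER chaperones and stress targets, 24 had a lower mean in TNBS colon (median log2 fold change -0.40). At an unadjusted edgeR p under 0.05, 4 were lower and 0 higher, where 10.2% and 10.8% of all tested genes were. TNBS replicate 2 was the lowest library for 18 (58.1%, against 28.5% of all tested genes). Agr2, the isomerase that goblet cells need to make mucin, stood at 1896, 2504 and 2240 CPM in normal and 2249, 651 and 792 CPM in TNBS colon (-0.85 ± 0.44, adjusted p = 0.30). TNBS replicate 1 lay within the normal range and the other 2 far below it, and without TNBS replicate 1 the difference was -1.62 (adjusted p = 0.00841). The co-chaperone Dnajb9 (-0.76, adjusted p = 0.148), the ER stress proteins Creld2 (-0.76, adjusted p = 0.150) and Manf (-0.64, adjusted p = 0.251) and the Hspa5 partner Sdf2l1 (-0.62, adjusted p = 0.297) had lower means, and of these Creld2 alone had separate groups.

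The 13 retrieval and cargo receptors had 10 lower means and a median of -0.24. At an unadjusted edgeR p under 0.05 there were 0, where 10.8% of all tested genes were higher and 10.2% lower. Tmed2, a cargo receptor of early transport vesicles, stood at 527, 625 and 689 CPM against 588, 376 and 411 CPM (-0.42, adjusted p = 0.320). The 14 signal recognition and signal peptidase genes had a median of -0.13. An unadjusted edgeR p under 0.05 was reached by 1 higher and 2 lower genes, beside the same shares of all tested genes. Srp14, a subunit of the signal recognition particle, was at 31.9, 32.7 and 27.9 CPM against 37.6, 46.0 and 42.2 CPM, higher in each TNBS library (0.44 ± 0.19, adjusted p = 0.226). Shifts in TNBS replicates 1, 2 and 3 had medians of 0.21, -0.39 and -0.33 over the retrieval and cargo receptors and -0.03, -0.63 and -0.49 over the other chaperones, with TNBS replicate 2 lowest. Over the signal recognition and signal peptidase genes they were 0.12, -0.16 and -0.28, with TNBS replicate 3 lowest.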
